A study of Mus musculus with 9 samples.

Results

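The genes described here encode the protein components of the cytosolic ribosome. They were taken by name from a table of expected counts: every row whose NCBI gene ID carries a mouse symbol starting with Rpl or Rps and a digit, together with Rpsa, Rplp0, Rplp1 and Rplp2, and without the Rps6k kinases and symbols marked as pseudogenes. The rule named 94 rows of 36172, and 86 of them had a count above 0 in some library. Of these 86 members, 46 are proteins of the large subunit and 30 of the small subunit. Another 8 are paralogs of such proteins (Rpl3l, Rpl7l1, Rpl22l1, Rpl32l, Rpl36al, Rpl39l, Rps4l and Rps27l). RefSeq lists Rps4l as a transcribed pseudogene, and the annotated transcripts used here hold no coding sequence for Rps4l and Rpl32l. The last 2, Rps19bp1 and Rps23rg1, carry the name but are not ribosomal proteins. The other 8 rows (Rpl10l, Rpl37rt, Rpl6l, Rps12l1, Rps27rt, Rps3a1, Rps3a2 and Rps3a3) were listed at 0 in all 9 libraries. Rps3a1 encodes a constitutive small-subunit protein, so a listed 0 in this table can be a failed estimate rather than a missing transcript.

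RNA was sequenced from the medial prefrontal cortex of DBA2/J mice, in 3 groups with 3 libraries each. NS mice were not stressed and received saline according to the sample labels, while the design text calls the same group vehicle. Both other groups had gone through 5 days of social defeat stress and belonged to the subtype that the study calls SA:ANH. SA:ANH-vehicle mice received vehicle, and SA:ANH-KDM5Ci mice received an inhibitor of KDM5C, a demethylase that removes methyl groups from lysine 4 of histone H3. No group combines the inhibitor with the absence of stress, so an effect of the inhibitor alone and its effect after stress cannot be told apart. The sources used here give no age, sex, dose or batch, and they do not say whether replicates are separate mice or pools. The p-values below therefore measure the spread between these libraries, which may be technical.

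Ribosomal proteins assemble with ribosomal RNA into a small subunit, which reads the messenger RNA, and a large subunit, which joins amino acids. Their messenger RNAs are short and abundant, and most begin with a run of pyrimidines directly at the cap, the TOP start. Through this start their translation is held back or released together, under the control of the kinase complex mTORC1 and the RNA-binding protein Larp1. In neurons, ribosomal protein messenger RNAs are also found in dendrites and axons.

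The TOP start is a sequence known from these genes that the choice by name did not use. It was searched for in the RefSeq promoter table (GRCm38.p6), as a C at the annotated transcript start followed by at least 4 bases that are all C or T, read on the gene's own strand. The table held 65 of the 86 members, and 14 of them (21.5%) had such a run exactly at an annotated start, against 3.03% of the 11898 tested genes in the table and 3.01% of all 27025 genes in it. Allowing the run to begin up to 5 bases on either side of the start, 31 members (47.7%) had one, against 23.7% of the tested genes in the table. None of the 69 mitochondrial ribosomal protein genes in the table had the run exactly at the start. Annotated starts can lie some bases from the start used in cortex, so a missing match says only that these letters are not at that position. The windows below run 5' to 3' and hold 12 bases before the annotated start and 18 from it, with the pyrimidine run at the start in capitals. Rpl35a and Rps15a are shown because they passed the test described further on. The third member that passed, Rps27a, is not among the 65. The next 5 are shown as longer or shorter runs in both subunits, and Rpl7l1 as a paralog with no such run. Other annotated starts of Rpl35a, with windows chr16:33056441-33056470 and chr16:33056502-33056531, had no such run at the start or within 5 bases of it.
Rpl35a, large subunit, chr16:33056470-33056499, plus strand: gggcttgccttcCTCTTTCCgccatcttgg
Rps15a, small subunit, chr7:118116130-118116159, minus strand: tctttctgccatCTTCCCTCgccggtgagt
Rps6, small subunit, chr4:86857350-86857379, minus strand: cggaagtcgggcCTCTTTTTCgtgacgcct
Rps18, small subunit, chr17:33955648-33955677, minus strand: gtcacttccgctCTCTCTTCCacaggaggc
Rps27, small subunit, chr3:90213631-90213660, minus strand: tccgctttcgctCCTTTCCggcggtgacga
Rpl15, large subunit, chr14:18270969-18270998, minus strand: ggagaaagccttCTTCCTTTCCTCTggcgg
Rplp2, P stalk of the large subunit, chr7:141447639-141447668, plus strand: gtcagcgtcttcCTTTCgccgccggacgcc
Rpl7l1, paralog, chr17:46782639-46782668, minus strand: aggctgcgcaagcgcagtagctgaagcacc

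The members are spread over 19 chromosomes, with 4 of them on X. Levels of different genes were compared as CPM (counts scaled to a common library size with TMM factors) per kilobase of the annotated transcript, averaged over the 9 libraries. On this scale the 76 subunit genes had a median of 194 CPM per kb, with quartiles of 144 and 272. The highest was Rplp1, a protein of the acidic stalk that recruits translation factors, at 747 CPM per kb. It was followed by Rps15 at 580.4, Rpl41 at 458, Rps14 at 409 and Rps29 at 394 CPM per kb. The lowest subunit gene was Rps20 at 23.6 CPM per kb, and its chosen transcript is annotated with 3706 bases, more than any other member tested, which lowers a level per length. The paralogs included the 5 lowest levels apart from Rps19bp1 and Rps23rg1: Rps27l at 15.5, Rpl32l at 7.76, Rps4l at 4.12, Rpl3l at 0.318 and Rpl39l at 0.0213 CPM per kb. The counts behind these levels are high, from 1362 to 21011 for a subunit gene in a library of 29845097 to 42196472 counts, so counting error is small beside the spread between libraries. Ribosomal protein genes have many near-identical processed copies in the genome. The table has 310 rows for such pseudogenes, of which 305 are at 0 and 5 above 0, and reads shared between a gene and its copies could have been split or dropped in a way the sources do not describe.

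**Figure D1:**
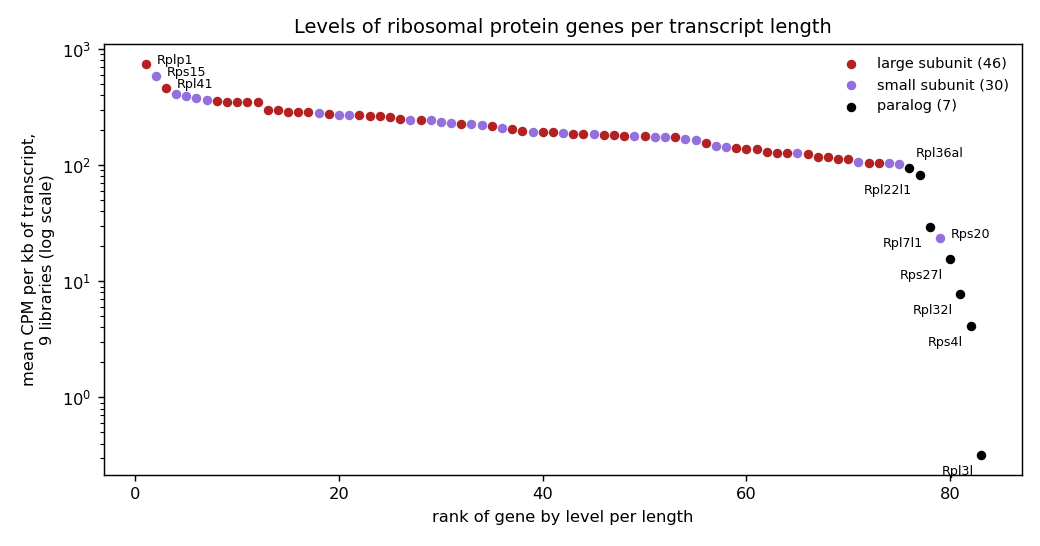
Mean level of each ribosomal protein gene over the 9 libraries in CPM per kb of transcript (log axis), ordered from highest to lowest. Subunit genes form a narrow band from 747 CPM per kb for Rplp1 down to 102 for Rps3, with Rps20 below it, and the paralogs lie at the lower end; Rpl39l, at 0.0213, is not drawn.

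The members' share of all counts was 1.27%, 1.16% and 1.19% in the NS libraries (mean 1.20% ± 0.0595, SD, n = 3). In the SA:ANH-vehicle libraries it was 1.22%, 1.28% and 1.36% (1.29% ± 0.0718, SD, n = 3). The SA:ANH-KDM5Ci libraries had 1.35%, 1.22% and 1.42% (1.33% ± 0.105, SD, n = 3). All 3 groups overlapped, because the first NS library lay above the lowest library of both stressed groups. In bulk tissue, fewer cells of a type with many ribosomes and less ribosomal protein RNA per cell cannot be told apart.

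Within each library the members stood high or low together. For each of the 84 members that passed the filter on low counts, the log2 CPM was set against the gene's own mean over the 9 libraries, and the median of these differences was taken per library. It was -0.13 in NS replicate 2, -0.09 in NS replicate 3, -0.07 in SA:ANH-vehicle replicate 1 and -0.05 in SA:ANH-KDM5Ci replicate 2. NS replicate 1, at -0.0082, and SA:ANH-vehicle replicate 2, at 0.0094, lay near the mean. SA:ANH-vehicle replicate 3 and SA:ANH-KDM5Ci replicate 1 were both at 0.09, and SA:ANH-KDM5Ci replicate 3 was highest at 0.18. This last library held the highest level of 75 of the 84 members, and NS replicate 2 the lowest of 52. The median over all 15144 genes tested stayed between -0.0026 and 0.0070 in every library. The mitochondrial ribosomal proteins, a separate set of 78 genes, were also highest in SA:ANH-KDM5Ci replicate 3 (0.14) and SA:ANH-vehicle replicate 3 (0.07), and lowest in SA:ANH-vehicle replicate 1 (-0.07) and NS replicate 2 (-0.06). After removing the group means, a member's deviations over the 9 libraries had a median correlation of 0.947 with the median deviation of the other members, and 81 of 84 members were above 0.5. The 3 below that were Rps4l at 0.12, Rpl3l at 0.13 and Rps27l at 0.45, all paralogs of low level. Rps19bp1, which is not a ribosomal protein, was at 0.966. Such correlations were not computed for genes outside the members. They are a description over 9 libraries, which all the genes share. The median SD of log2 CPM within groups was 0.104 for members and 0.101 for all genes tested. The 2 sets differ in level, with a median of 135 CPM for members and 21.2 CPM for all genes tested. Genes of like level were not compared.

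**Figure D2:**
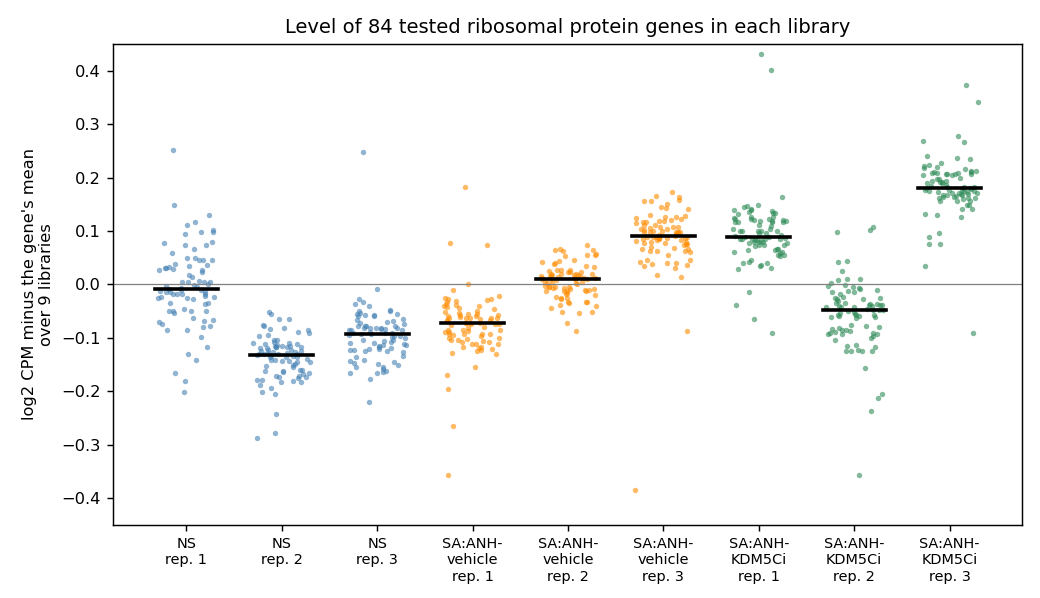
Level of each of the 84 tested members in each library, as log2 CPM minus the gene's mean over the 9 libraries (points), with the median of the members (black line). The median is lowest in NS replicate 2 (-0.13) and highest in SA:ANH-KDM5Ci replicate 3 (0.18), and SA:ANH-KDM5Ci replicate 2 lies below SA:ANH-vehicle replicates 2 and 3; 2 points lie beyond the drawn range.

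The first comparison asks what had changed in the stressed SA:ANH mice given vehicle, against unstressed mice. Here the members had small positive differences, with a median log2 fold change of 0.09 against 0.0038 over all genes tested. None passed the test (edgeR quasi-likelihood test, Benjamini-Hochberg adjusted p under 0.05). Of all 15144 genes, 2 were called higher (0.0132%) and 0 lower (0.0%). At an unadjusted p under 0.05, 7 members were higher and 0 lower, against 4.27% and 3.95% of all genes tested. The count of 7 was 0 without SA:ANH-vehicle replicate 3, 1 without NS replicate 2 or SA:ANH-vehicle replicate 2, 4 without NS replicate 3, 23 without SA:ANH-vehicle replicate 1 and 16 without NS replicate 1. The block on replicate number gave 13, and fits that lacked SA:ANH-KDM5Ci replicate 2 or 3 gave 13 and 14. DESeq2 also called 0 members, while it called 43 of all genes higher and 38 lower. Limma-voom called 0 members, and 2 genes higher and 1 lower. Positive log2 fold changes were found for 79 of 84 members, against 51.6% of all genes. The 2 groups did not overlap for 14 members, all higher in SA:ANH-vehicle, against 8.29% of all genes on that side and 6.81% on the lower side.

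The member of lowest p in this comparison was Rps27a, which encodes ubiquitin fused to a small-subunit protein. The NS libraries had 125, 128 and 127 CPM, and the SA:ANH-vehicle libraries 138, 144 and 155 CPM. The 2 groups did not overlap, and the log2 fold change was 0.20 (SE 0.068, edgeR adjusted p = 0.419). Rpl9, a large-subunit protein, had 220.1, 215 and 219 CPM in unstressed mice and 234, 245 and 254 CPM after stress with vehicle, a log2 fold change of 0.17 (SE 0.068, edgeR adjusted p = 0.55). It too showed no overlap between the groups. Rps15a and Rpl35a had log2 fold changes of 0.13 and 0.14. At the other end, Rpl3l (-0.20, SE 0.34), Rps4l (-0.04), Rpl41 (-0.01) and Rpl27 (-0.0049) were on the negative side, each with overlapping groups. Without SA:ANH-vehicle replicate 3 the members' median in this comparison was 0.04, and without NS replicate 1 it was 0.14. It was 0.06 without NS replicate 2.

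The second comparison asks what the KDM5C inhibitor changed in stressed mice. Members again had small positive values, with a median log2 fold change of 0.07 against 0.0032 over all genes tested. None of the 84 passed the edgeR test, while 0.891% of all genes were called higher and 1.62% lower. At an unadjusted p under 0.05, edgeR, DESeq2 and limma-voom each gave 1 member higher and edgeR 0 lower, against 5.58% and 8.62% of all genes by edgeR. Without SA:ANH-KDM5Ci replicate 2 edgeR gave 19, without SA:ANH-vehicle replicate 3 it gave 8, without NS replicate 1 it gave 1, and without any other single library 0. DESeq2 and limma-voom called 0 members as well. Positive values were found for 80 members, against 51.1% of all genes. The groups did not overlap for 1 member that was higher, against 7.92% of all genes, and for 1 that was lower, against 10.9%. The higher one was the paralog Rpl3l, at only 10 to 22 counts in a library, and the lower one the paralog Rpl7l1. Of the 76 subunit genes, 0 were without overlap.

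The member of lowest p was Rpl6, a large-subunit protein. Its SA:ANH-vehicle libraries had 228, 239 and 260.0 CPM and its SA:ANH-KDM5Ci libraries 259, 255 and 279.5 CPM. One vehicle library reached the range of the inhibitor group, and the log2 fold change was 0.13 (SE 0.058, edgeR adjusted p = 0.338). Rpl34, Rpl7 and Rpl22 followed with log2 fold changes of 0.12, 0.10 and 0.10. The median over members rests on single libraries here: it was 0.01, with 56 of 84 members positive, without SA:ANH-KDM5Ci replicate 3. It was 0.13 without SA:ANH-KDM5Ci replicate 2, 0.03 without SA:ANH-vehicle replicate 1 and 0.11 without SA:ANH-vehicle replicate 3. With library sizes not adjusted by TMM it was 0.04.

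The third comparison sets stressed mice given the inhibitor against unstressed mice. It shares its 2 groups with the other comparisons, so its values are not independent of them. The members' median log2 fold change was 0.16, a 1.12-fold level, against -0.00025 over all genes. By the edgeR test 3 members were called higher, against 1.86% of all genes, and 0 lower, against 2.11%. At an unadjusted p under 0.05, 0 members were lower, against 9.61% of all genes, and 47 were higher, against 8.85%. A positive value was found for 81 of 84 members, including all 76 subunit proteins, against 49.9% of all genes. The groups did not overlap for 21 members, all higher with the inhibitor, against 11.5% of all genes.

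**Figure D3:**
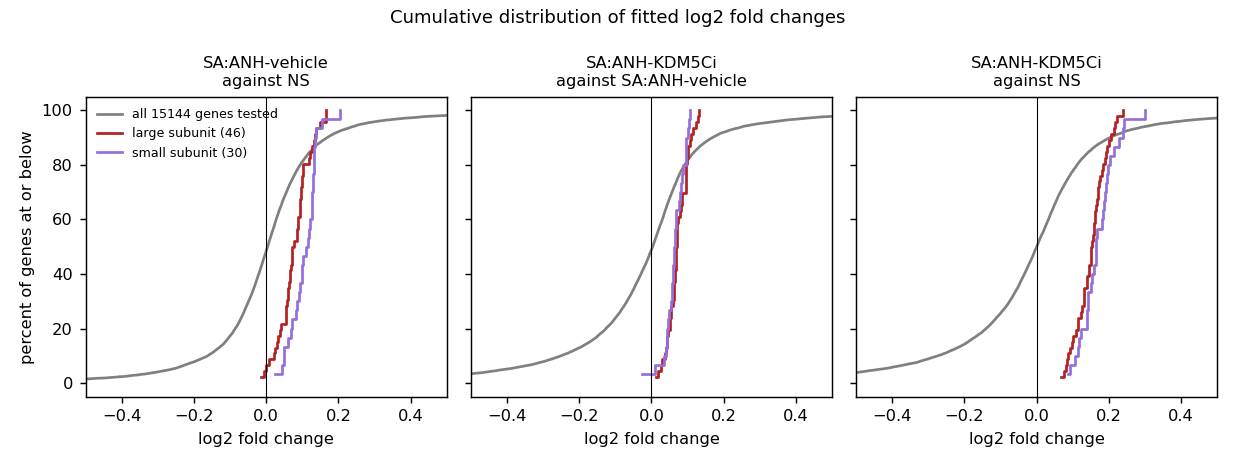
Cumulative percent of genes at or below each fitted log2 fold change, for all 15144 genes tested (grey), 46 large-subunit genes and 30 small-subunit genes, in the 3 comparisons. Genes of both subunits form steep curves mostly to the right of 0, with medians of 0.07 and 0.11 (SA:ANH-vehicle against NS), 0.07 and 0.06 (SA:ANH-KDM5Ci against SA:ANH-vehicle), and 0.15 and 0.16 (SA:ANH-KDM5Ci against NS) for the large and small subunit.

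Coordinates of the genes called are given on GRCm38.p6, from RefSeq. Rps27a (chr11:29545842-29548040) rose from 125, 128 and 127 CPM in NS to 157, 139.6 and 171 CPM in SA:ANH-KDM5Ci. Every inhibitor library lay above every NS library. The log2 fold change was 0.30 (SE 0.068), a 1.23-fold level, with an edgeR adjusted p of 0.0262. Rpl35a (chr16:33056453-33060189), a large-subunit protein whose loss causes Diamond-Blackfan anaemia in people, was at 123, 117 and 118 CPM in unstressed mice and at 143, 131 and 149 CPM with the inhibitor. These groups did not overlap either, and the log2 fold change was 0.24 (SE 0.057, edgeR adjusted p = 0.034). Rps15a (chr7:118104374-118116147), a small-subunit protein, went from 105, 100.1 and 109.9 CPM to 124, 117 and 124 CPM. Its groups were also apart, with a log2 fold change of 0.21 (SE 0.052, edgeR adjusted p = 0.0348). In the SA:ANH-vehicle libraries these 3 genes lay between, at means of 146 CPM ± 8.65 for Rps27a, 131 CPM ± 6.45 for Rpl35a and 115 CPM ± 4.26 for Rps15a (SD, n = 3). Just short of the threshold was Rps3, a protein at the entry of the messenger RNA channel. Its NS libraries had 185, 178 and 175 CPM and its SA:ANH-KDM5Ci libraries 214, 191 and 225 CPM, without overlap, a log2 fold change of 0.23 (SE 0.059, edgeR adjusted p = 0.0507).

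The 3 calls rest on single libraries. Without NS replicate 2, NS replicate 3, SA:ANH-KDM5Ci replicate 1 or SA:ANH-KDM5Ci replicate 3, the count of called members was 0 in each case, with 17, 22, 24 and 13 members at an unadjusted p under 0.05. Without SA:ANH-KDM5Ci replicate 2, the inhibitor library of lowest member level, it was 11. It was 5 without SA:ANH-vehicle replicate 1, 1 without SA:ANH-vehicle replicate 2 and 2 without NS replicate 1 or without SA:ANH-vehicle replicate 3. Of the 2 without NS replicate 1, only 1, Rpl35a, was among the 3 calls. The members' median stayed positive throughout, from 0.10 without SA:ANH-KDM5Ci replicate 3 to 0.22 without SA:ANH-KDM5Ci replicate 2.

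**Figure D4:**
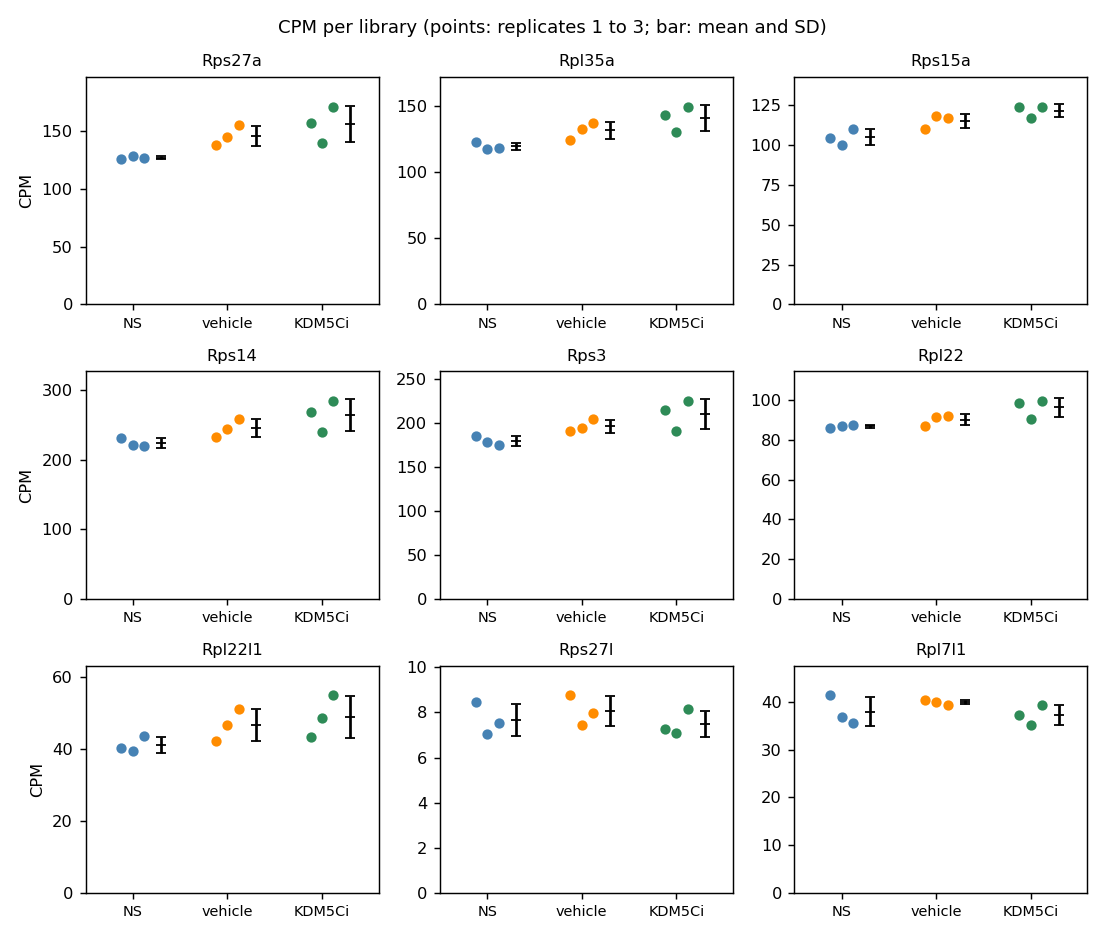
CPM in each library (points, replicates 1 to 3 from left to right) with the group mean and SD (n = 3) for 9 members; each axis starts at 0. For Rps27a, Rpl35a, Rps15a, Rps14, Rps3 and Rpl22 every SA:ANH-KDM5Ci library lies above every NS library, whereas the groups overlap for the paralogs Rpl22l1, Rps27l and Rpl7l1.

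The further landmark members named next had values between 0.14 and 0.21 in the comparison of SA:ANH-KDM5Ci with NS. These lie around the median of 0.16 over all members tested, and none of them passed the edgeR test. For Rps6, the substrate of S6 kinase downstream of mTORC1, the log2 fold change was 0.19, with an SE of 0.070 and an adjusted p of 0.161. Rpl5 and Rpl11 form a complex with ribosomal RNA that binds Mdm2 when ribosome assembly is disturbed, and their log2 fold changes were 0.16 and 0.16. The stalk proteins Rplp0, Rplp1 and Rplp2 had 0.14, 0.15 and 0.21. Rpsa, a small-subunit protein also described as a laminin receptor, had 0.19, and the X-linked Rps4x and Rpl10 had 0.20 and 0.14. Members with a TOP start at an annotated position had a median of 0.17 over 14 tested members. The other members with an annotated promoter had 0.16 over 49. The difference was not tested.

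Among the 7 paralogs tested, log2 fold changes between SA:ANH-KDM5Ci and NS ran from -0.03 to 0.31, against 0.07 to 0.30 over the 76 subunit genes. Rpl22l1 shares 66.9% of its aligned coding bases with Rpl22, and both proteins bind RNA. Its level was 40.5, 39.4 and 43.7 CPM without stress, 42.3, 46.7 and 51.2 CPM with vehicle and 43.4, 48.7 and 55.0 CPM in SA:ANH-KDM5Ci. The lowest inhibitor library lay just below the highest NS library, and the log2 fold change against NS was 0.25 (SE 0.088, edgeR adjusted p = 0.139). Rpl22 itself had 86.2, 87.0 and 87.4 CPM in NS and 98.8, 90.8 and 99.7 CPM in SA:ANH-KDM5Ci, with no overlap and a log2 fold change of 0.15 (edgeR adjusted p = 0.121).

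Rpl7l1, which shares 50.2% of aligned coding bases with Rpl7, had 40.4, 40.1 and 39.5 CPM in SA:ANH-vehicle and 37.3, 35.2 and 39.3 CPM in SA:ANH-KDM5Ci. It was the member whose inhibitor libraries were all below the vehicle libraries, though the NS libraries, at 41.4, 36.9 and 35.7 CPM, overlapped both groups. Its log2 fold change was -0.10 against vehicle (SE 0.064, edgeR adjusted p = 0.544) and -0.03 against NS. Rpl3l, a paralog of Rpl3 that is known from striated muscle, was at 0.279 to 0.636 CPM in all 9 libraries, while Rpl3 was at 440.3 to 523 CPM. The 2 genes share 73.0% of aligned coding bases. The log2 fold change of Rpl3l between SA:ANH-KDM5Ci and NS, 0.31, had an SE of 0.32. Rpl39l, known from the testis, was listed at 0 in 6 libraries and at 0.0469 CPM or less in the other 3, and was not tested. Rpl36al shares 87.7% of its coding bases with Rpl36a, and their log2 fold changes against NS were 0.15 and 0.16.

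Rps27l, a p53-induced paralog of Rps27, had 8.45, 7.05 and 7.53 CPM without stress, 8.76, 7.45 and 7.97 CPM with vehicle and 7.25, 7.08 and 8.14 CPM in SA:ANH-KDM5Ci. All groups overlapped, and its log2 fold changes were -0.03 (SE 0.10) against NS and -0.10 against vehicle. The value against NS was 0.05 without NS replicate 1 and 0.0072 without SA:ANH-KDM5Ci replicate 2. Rps27 itself was at 123, 109 and 117 CPM in unstressed mice and at 134, 117 and 138 CPM with the inhibitor, a log2 fold change of 0.16 (edgeR adjusted p = 0.27). Both coding sequences have 252 bases and differ at 60 of them, 76.2% being identical. They are shown in full as an example of a gene and its paralog, with the differing bases in capitals (GENCODE M21 transcripts, GRCm38).
Rps27: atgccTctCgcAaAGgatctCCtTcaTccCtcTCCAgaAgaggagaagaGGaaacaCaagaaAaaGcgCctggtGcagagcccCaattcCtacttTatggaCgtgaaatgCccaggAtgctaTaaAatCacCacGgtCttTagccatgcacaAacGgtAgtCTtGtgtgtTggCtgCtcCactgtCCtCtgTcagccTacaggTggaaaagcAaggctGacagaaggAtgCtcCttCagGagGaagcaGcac
Rps27l: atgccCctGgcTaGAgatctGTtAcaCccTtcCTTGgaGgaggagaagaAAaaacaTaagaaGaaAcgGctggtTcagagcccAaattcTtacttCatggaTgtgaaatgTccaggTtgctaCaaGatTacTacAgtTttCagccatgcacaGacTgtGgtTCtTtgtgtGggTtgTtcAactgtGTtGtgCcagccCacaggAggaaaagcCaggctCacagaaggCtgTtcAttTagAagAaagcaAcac

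Genes around the ribosome were read from lists by function. Outside the naming rule, Fau encodes a ubiquitin-like protein fused to a small-subunit protein, and Rack1 a scaffold on the small subunit. Their log2 fold changes between SA:ANH-KDM5Ci and NS were 0.12 and 0.13, with edgeR adjusted p of 0.391 and 0.234. Of 21 other messenger and noncoding RNAs known for a TOP start, 3 were called higher and 0 lower between SA:ANH-KDM5Ci and NS, with 21 of 21 positive and a median of 0.11. One of the 3 was Gas5, a noncoding host of small nucleolar RNAs, at 37.8, 35.5 and 37.9 CPM in NS and 47.1, 43.0 and 46.3 CPM in SA:ANH-KDM5Ci (log2 fold change 0.29, SE 0.067, edgeR adjusted p = 0.0274). Another host, Snhg1, went from 4.13, 4.10 and 4.45 CPM to 6.53, 5.30 and 6.62 CPM (log2 fold change 0.55, SE 0.13, edgeR adjusted p = 0.0347). The splicing regulator Hnrnpa1 had a log2 fold change of 0.17 (edgeR adjusted p = 0.0499). For each of the 3 the groups did not overlap. In the promoter search above, 15 of the 21 were in the table, and 3 of these had the run exactly at an annotated start. Gas5 had it at an annotated start but not at another. Snhg1 and Hnrnpa1 had none at the start or within 5 bases of it.

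Lists for other parts of ribosome production and use were read in the same way, and differences between lists were not tested. The 41 ribosome biogenesis factors had medians of 0.02, 0.0023 and 0.02 in the 3 comparisons in the order above, with 0 called by edgeR in each. The 78 mitochondrial ribosomal proteins had 0.03, 0.03 and 0.05, again with 0 called. At an unadjusted p under 0.05, the biogenesis factors had 1, 3 and 3 genes higher and 0, 2 and 0 lower. The mitochondrial proteins had 2, 0 and 9 higher and 0 lower in each comparison. Of all genes tested, 4.27%, 5.58% and 8.85% were higher at this p, and 3.95%, 8.62% and 9.61% lower. These shares also stand beside the counts for the smaller lists below. The 5 ribosomal pseudogene rows above 0 had medians of 0.19, 0.11 and 0.29, with 0 called. Of these rows 1, 0 and 3 were higher at an unadjusted p under 0.05, and 0 lower. The part of reads shared with the members was not tested. Of the 14 genes of RNA polymerase I and its factors, 1 was called, Taf1a, lower with the inhibitor than with vehicle (log2 fold change -0.37). The 12 tested genes for ribosome collision and quality control had medians of 0.0083, 0.06 and 0.03, so that the second was near the members' 0.07. Of these genes 0 were called, with 1, 2 and 2 higher at an unadjusted p under 0.05 and 0 lower. Of 21 genes for mTORC1 and the control of TOP translation, 2 were called higher with the inhibitor against either other group. Both are restraints of mTORC1. Ddit4 was at 28.6, 25.0 and 24.7 CPM in NS, 26.6, 22.8 and 24.5 CPM with vehicle and 74.9, 55.3 and 57.5 CPM with the inhibitor, a log2 fold change against vehicle of 1.34 (SE 0.11, edgeR adjusted p = 9.0e-05). Sesn1 was at 60.6, 60.5 and 59.0 CPM with vehicle and 74.4, 72.0 and 78.6 CPM with the inhibitor, without overlap.

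**Figure D5:**
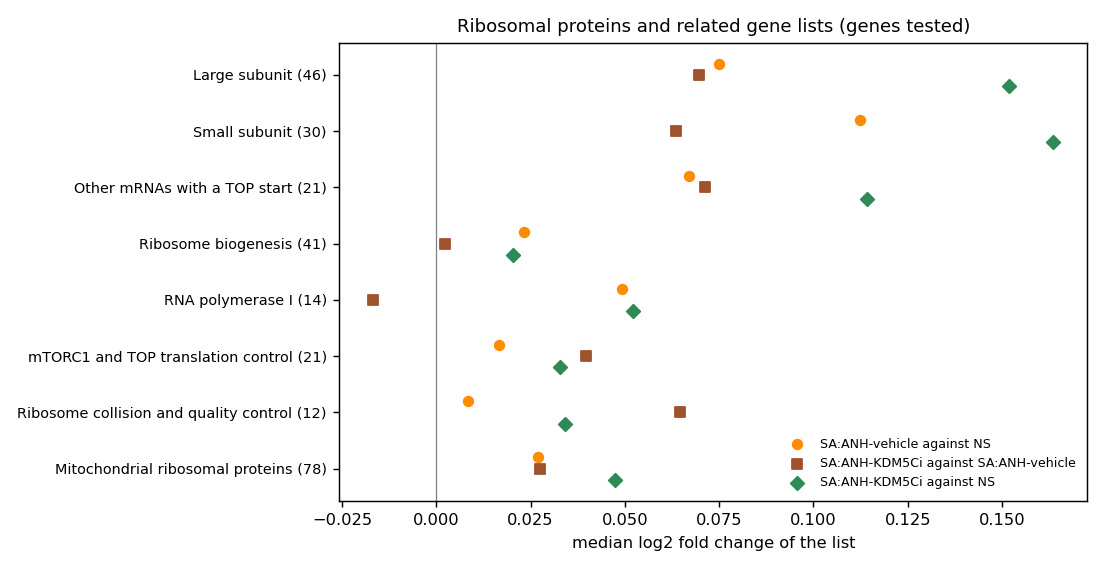
Median log2 fold change of the subunit genes and of related lists in the 3 comparisons, with the number of genes tested in brackets. Between SA:ANH-KDM5Ci and NS the subunit genes are at 0.15 and 0.16, and the other RNAs listed for a TOP start at 0.11. Ribosome biogenesis factors are at 0.02 and mitochondrial ribosomal proteins at 0.05. Pseudogene rows are not drawn.

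The members are short, with a median transcript length of 705 bases against 2837 over the tested genes of known length. Other genes of up to 1000 bases also had a positive median between SA:ANH-KDM5Ci and NS, 0.04 over 981 genes, while genes over 4000 bases had -0.02 over 4230. The 65 members of up to 1000 bases had a median of 0.15. Among the 84 members, which share the same libraries, the log2 fold change had Spearman correlations with GC content of -0.44, 0.03 and -0.30 in the 3 comparisons in order. With length they were -0.08, 0.12 and 0.06. The part of length and base composition in the result was not tested.

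Cell type markers were summed per library. The 8 excitatory neuron markers fit the labelled cortex, with none at 0 and a sum of 5419.9 to 6101 CPM in every library. Between SA:ANH-KDM5Ci and NS, 7 of 7 oligodendrocyte markers had positive values with 0 called, and their sum was 1505 to 3064 CPM for NS, 1959 to 3084 CPM for SA:ANH-vehicle and 2757 to 3621 CPM for SA:ANH-KDM5Ci. Of the 4 oligodendrocyte precursor markers, 3 were positive and 1 was called higher, 2 against vehicle. Their sums were 166 to 195.5, 159.9 to 176 and 209 to 221 CPM in the same order of groups, so that the inhibitor group lay above both others. This did not hold for each marker. Olig2 had 22.5, 17.0 and 15.9 CPM in NS and 36.8, 27.9 and 35.4 CPM in SA:ANH-KDM5Ci. Pdgfra overlapped, with 56.1, 63.1 and 63.2 CPM in NS and 61.6, 65.7 and 53.7 CPM in SA:ANH-KDM5Ci. Cspg4 overlapped as well, with 17.6, 19.0 and 15.7 CPM against 18.3, 18.7 and 15.9 CPM. Of the 6 endothelial markers 2 were positive and 2 called lower, with sums of 172 to 181, 163 to 179 and 134 to 170.4 CPM, so that the inhibitor group lay below NS. Of 5 mural cell markers 3 were positive and 1 was called lower, with sums of 125 to 139, 132 to 157 and 114 to 134 CPM. Of 7 interneuron markers 6 were positive and 1 was called higher, with sums of 948 to 1012, 939 to 1030.0 and 986 to 1065 CPM. Of the 8 striatal neuron markers, 8 were positive with 0 called, and their sums were 175 to 308, 196 to 259.8 and 225 to 550.0 CPM in the same order. Of the 7 meningeal markers 0 were positive and 2 were called lower, with sums of 53.5 to 86.0, 61.2 to 95.9 and 43.6 to 47.5 CPM. The 4 blood cell markers found were all called higher against NS, with sums of 235 to 272, 406 to 466 and 372 to 495 CPM. In the comparison of SA:ANH-vehicle with NS, 1 of these 4 was called higher. Between SA:ANH-KDM5Ci and NS, 3 of the 8 excitatory neuron markers were positive, with 0 called. In that comparison 0 of 7 astrocyte, 4 of 6 microglia and 1 of 3 tested choroid plexus markers were positive. Between SA:ANH-vehicle and NS, 0 of 7 astrocyte markers were positive. The astrocyte sums overlapped, at 4517 to 5099, 4319 to 4847 and 4380 to 5009 CPM in the same order of groups. Of the astrocyte, microglia and choroid plexus markers tested, 0 were called in any comparison. No marker of the other 9 lists was at 0 in every library, and their part in the values of the ribosomal protein genes was not tested.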

How the data were processed

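Libraries were made from total RNA with a strand-specific kit, per the labels' protocols. Per the submitters' processing notes, Trimmomatic 0.32, TopHat2 2.0.13, Bowtie2 2.2.3 and the mm10 genome were used. How reads were counted per gene, with which annotation and strand setting, is not given in the sources used here. A deposited table of the whole series holds expected counts per NCBI gene ID for the 9 libraries, which the authors did not normalize as far as the values show. Of 36172 IDs, 32947 matched a symbol in the RefSeq gene table (GRCm38.p6).

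Expected counts were rounded and fitted with edgeR 4.0.16 (R 4.3.3) over all 9 libraries: filterByExpr, TMM factors (0.987 to 1.01), robust quasi-likelihood tests, and Benjamini-Hochberg adjustment over 15144 genes with a threshold of 0.05. Of 86 members, 84 passed the filter, and Rpl39l and Rps23rg1 did not. The common biological coefficient of variation was 6.95%. The fit was tested on simulated counts. Depth was 29845097 to 42196472 counts per library; the labels name no batch. Alternatives were DESeq2 1.42.0, limma-voom 3.58.1, other scalings and filters, a replicate block, pairwise fits and leaving out each library.

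Transcript lengths and coding sequences came from GENCODE M21 (GRCm38), taking the principal transcript, then the shortest. Identity between paralogs was computed on coding bases in place of the planned protein alignment, because protein sequences were not used here. Tables were made with Python 3.11.15 and pandas 2.3.3.

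The members, the related lists, the marker lists and the tests were chosen with earlier results of these data known. Members named were those called, the 4 of lowest p per direction and comparison, the extremes of level per length, paralog pairs and landmark proteins. Rps14 in the plot of CPM by library is among the highest in level per length. Values of some genes that the rule names are not reported here. Transcript length classes were added after the values were seen.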

Additional observations from a re-analysis of the deposited data

How the results depend on the processing

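With 3 libraries per group, the count of members called higher between SA:ANH-KDM5Ci and NS, 3 by the edgeR fit, was 9 by DESeq2, 5 with no filter on low counts and 7 with the replicate block, and 0 to 11 when 1 library was left out. All 3 members called were also called by DESeq2, limma-voom and the fit with the block. The fit on only these 2 groups called 2 of them, without Rps15a (edgeR adjusted p = 0.0535). When 1 library was left out, adjusted p reached 0.0985 for Rps27a, 0.139 for Rpl35a and 0.16 for Rps15a. Members' medians stayed positive under all 18 alternatives; leaving out 1 library gave 0.04 to 0.14 for SA:ANH-vehicle against NS, 0.01 to 0.13 for SA:ANH-KDM5Ci against SA:ANH-vehicle and 0.10 to 0.22 for SA:ANH-KDM5Ci against NS. The count of all genes called between SA:ANH-KDM5Ci and NS, 281 higher and 320 lower, was 133 to 343 higher and 136 to 404 lower over the same fits. The causes were not tested.

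Of 736 alternative values for members named in their comparison, 689 kept direction and call, 18 lost a call, 13 gained one and 16 changed sign. This set, the values printed above, was chosen after the alternatives had been computed. Over all 36 named members that are reported, in every comparison, 40 of 1887 values changed sign, and 0 of these were called. In SA:ANH-vehicle against NS, Rpl27 was 0.0047 without TMM factors. Leaving out 1 library there gave -0.042 to 0.033 for Rpl27, -0.43 to 0.17 for Rpl3l, -0.081 to 0.059 for Rpl41 and -0.15 to 0.12 for Rps4l. In SA:ANH-KDM5Ci against SA:ANH-vehicle it gave -0.12 to 0.025 for Rps19bp1. In SA:ANH-KDM5Ci against NS it gave -0.071 to 0.043 for Rpl7l1, -0.085 to 0.052 for Rps19bp1 and -0.10 to 0.049 for Rps27l.

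Libraries share replicate numbers across groups, but not all same-numbered libraries deviated together. Over all genes, the correlations of NS with same-numbered libraries of the other groups ran from -0.14 to 0.10. Between SA:ANH-vehicle and SA:ANH-KDM5Ci, same-numbered libraries had 0.24, 0.08 and 0.18, and differently numbered ones -0.25 to 0.09. The numbers were not taken as pairs in the main fit, and whether they mark a pairing of the stressed groups was not tested. With the replicate block, members' medians were 0.09, 0.06 and 0.15 in the 3 comparisons, and 0 members were called in the first and second.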
